A study of Mus musculus with 8 samples.

Results

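The miR-17-92 polycistron is a single primary transcript from which 6 mature guide arms are cut, and each of the 6 had a probe of its own name on the arrays (mmu-miR-17, mmu-miR-18a, mmu-miR-19a, mmu-miR-20a, mmu-miR-19b and mmu-miR-92a), among 1135 miRNA probes in all, of which 39 are for viral miRNAs. The members are the arms of this cluster by name. Liver RNA of 4 MCD + metformin mice and 4 MCD mice was measured, 1 array per mouse. Both groups were male C57BL/6N mice that started at 8 weeks of age and received, over 15 weeks, feed that lacks methionine and choline (the MCD diet), which produces steatohepatitis in mice without obesity. MCD + metformin mice took in metformin, a biguanide used in type 2 diabetes, at 2.4 mg/day in the drinking water for the same 15 weeks, and MCD mice had none. Mice on a normal diet were not analysed here, so all values below compare treated with untreated livers on the same diet.

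The transcript of the cluster folds into a row of hairpins that the nuclease Drosha releases one by one, so the members share a promoter but can reach different mature levels through processing and decay. From each hairpin 1 arm, the guide, is mostly kept in the Argonaute complex, while the opposite arm, the passenger, is mostly lost and was written with an asterisk in the array's naming. The cluster is induced by the transcription factors Myc and E2F and is known for promoting cell cycle entry and survival. Its miR-17 and miR-20a arms repress the cell cycle inhibitor Cdkn1a and the pro-apoptotic factor Bcl2l11, and in the liver the cluster has been tied to hepatocyte growth and to tumours.

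In the RefSeq annotation of build GRCm38.p6 the 6 hairpins lie on chromosome 14, plus strand, within 836 bases, from 115043671 (first base of Mir17) to 115044506 (last base of Mir92-1), in the order Mir17, Mir18, Mir19a, Mir20a, Mir19b-1 and Mir92-1. The noncoding host gene Mir17hg was annotated from 115044390 to 115046728 on the same chromosome, so that model holds the whole Mir92-1 hairpin and only the last bases of Mir19b-1, and the other hairpins lie in front of it. All 6 guide arms matched a RefSeq mature sequence. The sequences are shown here because probes for close relatives differ by very few bases. The seed (bases 2 to 8), which selects targets, is in capitals.
mmu-miR-17: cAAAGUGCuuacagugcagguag
mmu-miR-20a: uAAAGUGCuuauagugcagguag
mmu-miR-18a: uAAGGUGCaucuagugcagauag
mmu-miR-19a: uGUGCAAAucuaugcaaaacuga
mmu-miR-19b: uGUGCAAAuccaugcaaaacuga
mmu-miR-92a: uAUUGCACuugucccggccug

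The 6 arms carried 4 seeds. The seed of mmu-miR-17 and mmu-miR-20a was shared by 7 of the 1679 mature mouse miRNAs in the RefSeq table (0.417%), that of mmu-miR-92a by 6, and those of mmu-miR-18a and of the miR-19 pair by 2 each. Counted from 1 at the 5′ end, with the base of the first-named miRNA before the position, mmu-miR-17 and mmu-miR-20a differed by C1U and C12U, and mmu-miR-19a and mmu-miR-19b by U11C alone. The sequence of mmu-miR-19b and that of mmu-miR-92a are each encoded a second time, on the X chromosome in the paralogous miR-106a-363 cluster, so signal at these 2 probes cannot be assigned to the chromosome 14 locus. The paralogs most like the first arm are shown for the same reason.
mmu-miR-106a: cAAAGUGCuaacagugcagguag
mmu-miR-20b: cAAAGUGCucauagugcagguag
mmu-miR-93: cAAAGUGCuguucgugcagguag
mmu-miR-106b: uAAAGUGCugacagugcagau
mmu-miR-106a differed from mmu-miR-17 by U10A alone, and mmu-miR-20b differed from mmu-miR-20a by U1C and U10C. mmu-miR-93 and mmu-miR-106b carried 4 and 3 substitutions against mmu-miR-17. The probes' own selectivity between such neighbours was not measured here, so cross-hybridisation within the miR-17 seed group was not tested.

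Arrays were read as the median scanner signal of each spot, in arbitrary intensity units, and all changes below are log2 fold changes of MCD + metformin over MCD after background correction and scaling. Every guide arm was above the blank spots (mean + 2 SD of the spots without a probe) on all 8 arrays. Against the brighter negative control spots, 5 of the 6 lay above mean + 2 SD on every array, and mmu-miR-18a did so on 6 of 8. Numbers of probes above the blank spots were 848 to 1018 in MCD + metformin arrays and 868 to 970 in MCD arrays, and no spot carried a scanner flag. The local background averaged 139 ± 3.30 in MCD + metformin arrays and 159 ± 2.94 in MCD arrays (SD, n = 4 each; exact permutation test, two-sided, p = 0.0286, the smallest that 4 against 4 allows). All MCD + metformin arrays lay in cell 2 of the scanned image and all MCD arrays in cell 1, so position and treatment cannot be told apart in any comparison below.

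The miR-17-92 guide arms as a group differed little between the treatments. Of the 6, 4 had a positive and 2 a negative log2 fold change, beside 625 positive and 445 negative of all 1070 probes tested. The median of the 6 was 0.10, beside 0.03 over all probes tested. None of the 6 passed limma's test after Benjamini-Hochberg adjustment, nor did any of the 1070 probes (0 called, 0%; smallest adjusted p = 0.195). At an unadjusted p of 0.05, limma called 1 guide arm, mmu-miR-20a, which was higher, and 101 of all probes (9.44%), of which 68 were higher (6.36%) and 33 lower (3.08%). The methods' t-test called the same arm and 83 probes, 51 higher and 32 lower, and none after adjustment. The split of the calls over all probes moved with the processing: 67.3% of them were higher with the processing used here, 28.6% without scaling and 46.2% after quantile normalization. It was 51.2% without background correction, 46.2% with background from the blank spots and 72.9% under plain subtraction, and it was 37.3% in the deposited value table, which differs in background, filter and scaling at once. In bulk liver RNA, fewer cells of a type and less RNA per cell cannot be told apart.

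**Figure D1:**
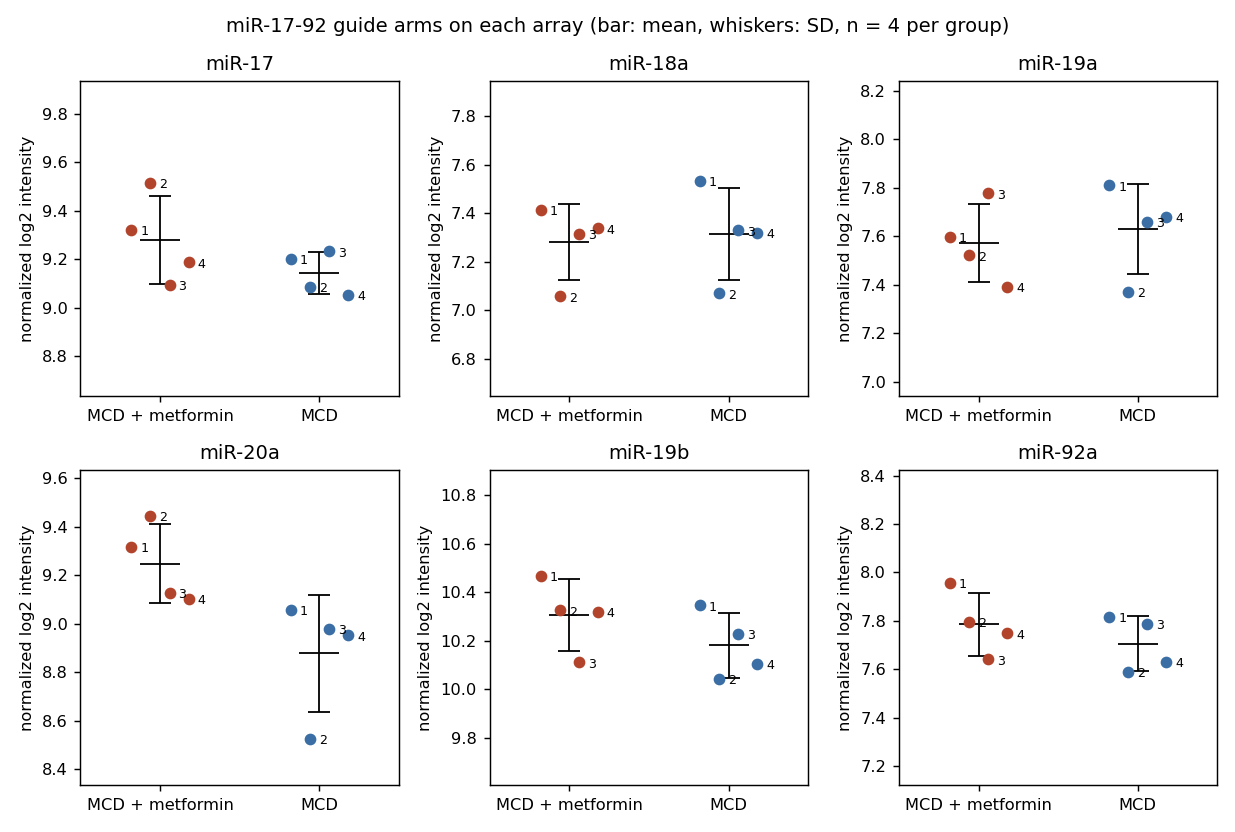
Normalized log2 intensity of each guide arm on each array (points, numbered by replicate), with MCD + metformin mice on the left and MCD mice on the right of each panel; bars are means and whiskers SD over 4 arrays, and each vertical axis spans the same range. The 4 MCD + metformin arrays lie above the 4 MCD arrays in the miR-20a panel, with MCD replicate 2 lowest at 8.52, and the groups overlap in the other 5 panels.

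mmu-miR-20a, the fourth hairpin of the row and a repressor of cell cycle inhibitors, had the largest change among the guide arms. Its scanner signal was 805, 826, 650 and 686 in MCD + metformin livers (replicates 1 to 4), against 713, 513, 679 and 642 in MCD livers. On this raw scale the groups overlapped, since 2 treated livers read below the brightest untreated one. After background correction and scaling, its log2 intensity was 9.32, 9.45, 9.13 and 9.10 in MCD + metformin livers, against 9.06, 8.52, 8.98 and 8.95 in MCD livers. The groups then did not overlap, as was so for 51 of the 1070 probes (4.77%), but the dimmest treated liver stood only just above the brightest untreated one. The log2 fold change was 0.37 (SE 0.133, 95% interval 0.09 to 0.65), a 1.29-fold difference. It gave an unadjusted limma p = 0.0135 and an adjusted p = 0.353, rank 41 of the 1070 probes, with an exact permutation p = 0.0286, two-sided, the smallest this design allows.

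The miR-20a value depended on 1 untreated liver and on the processing. Without MCD replicate 2, where the probe was lowest, the log2 fold change was 0.25 and the probe was no longer past an unadjusted p of 0.05 (limma adjusted p = 0.684). It stayed positive in all 22 alternatives, between 0.25 and 0.44, and in 6 of them its unadjusted p was above 0.05 (limma adjusted p from 0.315 to 0.774 over the 22). In the deposited value table, which the authors offset and scaled themselves, the values were 503, 579, 444 and 482 in MCD + metformin livers, against 455, 275, 440 and 428 in MCD livers, and there 1 treated value fell within the untreated range.

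mmu-miR-17, the first hairpin and the arm that shares its seed with mmu-miR-20a, had signals of 797, 852, 630 and 707 in MCD + metformin livers, against 762, 678, 771 and 660 in MCD livers. On this raw scale the treated livers held both the highest and the lowest of the 8 signals. After background correction and scaling, mmu-miR-17 was lowest in MCD replicate 4 (log2 intensity 9.05), below MCD + metformin replicate 3 (9.10). Its log2 fold change was 0.14 (SE 0.116, 95% interval -0.11 to 0.38), with a limma adjusted p = 0.758, exact permutation p = 0.286. The difference mmu-miR-20a minus mmu-miR-17 within each array, which follows how the pair moved and not which miRNA was more abundant, was -0.0043, -0.07, 0.03 and -0.08 log2 units in MCD + metformin livers and -0.14, -0.56, -0.25 and -0.10 in MCD livers. The pair of seed partners lay farthest from its treated values in the MCD replicate 2 liver. Against the mean of the other 5 guide arms, mmu-miR-20a stood at 0.77, 1.002, 0.74 and 0.71 in MCD + metformin livers and 0.52, 0.29, 0.53 and 0.59 in MCD livers, given without a test because mmu-miR-20a was singled out after its values were seen.

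The miR-19 arms, the part of the cluster most needed for lymphoma growth in mice, showed no common direction. mmu-miR-19b read 1617, 1412, 1153 and 1396 in MCD + metformin livers, against 1543, 1201, 1421 and 1243 in MCD livers, with the highest and the lowest raw signal both among treated livers. After background correction and scaling, mmu-miR-19b was lowest in MCD replicate 2 (log2 intensity 10.04), below MCD + metformin replicate 3 (10.11). Its log2 fold change was 0.13 (SE 0.116, 95% interval -0.12 to 0.37; limma adjusted p = 0.793, exact permutation p = 0.257), and it was -0.03 under plain background subtraction and -0.05 after quantile normalization. mmu-miR-19a, which differs from it by 1 base, read 340, 315, 338 and 310 in MCD + metformin livers, against 378, 310, 354 and 349 in MCD livers. Its log2 fold change was -0.06 (SE 0.124, 95% interval -0.32 to 0.20; limma adjusted p = 0.962, exact permutation p = 0.629). Both intervals include 0, and each arm's groups overlapped.

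mmu-miR-18a, whose seed differs from that of mmu-miR-17 by A4G, was the only guide arm that did not exceed the negative control spots on every array. It read 327, 272, 294 and 314 in MCD + metformin livers, against 345, 285, 321 and 315 in MCD livers. Replicate 2 was the lowest liver of both groups, and on these 2 arrays the probe did not exceed the negative control spots. Its log2 fold change was -0.03 (SE 0.124, 95% interval -0.29 to 0.23; limma adjusted p = 0.972, exact permutation p = 0.8), and its sign turned when MCD + metformin replicate 2 or MCD replicate 1 was left out (0.04 in each case).

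mmu-miR-92a, the last arm and a repressor of integrin alpha 5 in endothelial cells, read 402, 358, 324 and 358 in MCD + metformin livers, against 388, 340, 380 and 344 in MCD livers. The treated livers again held the highest and the lowest raw signal. After background correction and scaling, mmu-miR-92a was lowest in MCD replicate 2 (log2 intensity 7.59), below MCD + metformin replicate 3 (7.64). Its log2 fold change was 0.08 (SE 0.112, 95% interval -0.16 to 0.32; limma adjusted p = 0.894, exact permutation p = 0.457). Across the 5 arms other than mmu-miR-20a, the intervals ran from -0.32 at the lowest to 0.38 at the highest, or from 0.80-fold to 1.30-fold.

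**Figure D2:**
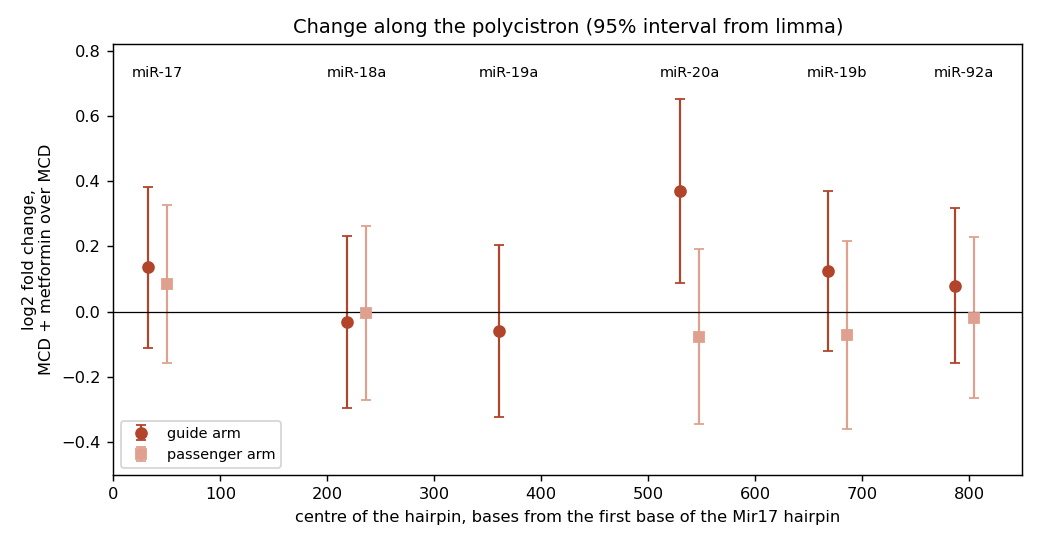
Log2 fold change of MCD + metformin over MCD for guide arms (circles) and tested passenger arms (squares) against the centre of their hairpin, in bases from the first base of the Mir17 hairpin; whiskers are 95% intervals from limma and the pairs are set slightly apart for display. Only the interval of miR-20a, 0.09 to 0.65, lies above 0. The changes do not run steadily from the first to the last hairpin, but the guide arm intervals all overlap.

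The log2 fold changes did not run steadily along the transcript, but the 95% intervals of the guide arms all overlapped, so their order was not resolved. From the first to the last hairpin the log2 fold changes were 0.14, -0.03, -0.06, 0.37, 0.13 and 0.08, with the lowest value next to the highest. Passenger arms, which report on the same hairpins, were dim: 5 of the 6 were tested, mmu-miR-19a* was not because it exceeded the blank spots on only 3 arrays, and mmu-miR-17* alone exceeded the negative control spots, on 1 array. No passenger arm was called at either threshold, and their log2 fold changes ran from -0.08 for mmu-miR-20a* to 0.08 for mmu-miR-17*. The passenger of the mmu-miR-20a hairpin read 248, 268, 261 and 256 in MCD + metformin livers, against 261, 273, 269 and 298 in MCD livers. On no array did this probe exceed the negative control spots, and its log2 fold change of -0.08 had a 95% interval of -0.34 to 0.19.

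The guide arms also differed from array to array within each group, and these differences were partly shared. Over the 8 arrays, the 15 pairs of guide arms had a median Pearson's r of 0.46 (0.58 with each arm centred on its group mean), beside a median of 0.03 over all 101475 pairs of the 451 probes detected on every array, with quartiles of -0.27 and 0.33. Of the 1070 probes tested, 158 exceeded the negative control spots on every array, against 5 of the 6 guide arms. The reference pairs were thus mostly of dimmer probes, and pairs of like brightness were not compared. All points share an array, its scaling and its hybridisation, and the correlations are descriptions without a test. The arms mmu-miR-17, mmu-miR-20a, mmu-miR-19b and mmu-miR-92a moved together, with r between 0.69 and 0.96 in their 6 pairs. mmu-miR-19b and mmu-miR-92a, the last 2 hairpins and the 2 sequences that are also encoded on the X chromosome, had the closest profiles (r = 0.96, Spearman's rho = 0.98), and r was 0.91 over the 6 arrays left without the 2 that lay farthest from the median.

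mmu-miR-18a and mmu-miR-19a, the arms of the second and the third hairpin, had r from -0.23 to 0.46 with that set in the 8 pairs between the sets. With each arm centred on its group mean these pairs ran from -0.20 to 0.58, near the lowest r of 0.62 inside the set on the same scale, and by Spearman's rho from -0.07 to 0.60, so the sets were not sharply apart. Their own r was 0.64 (Spearman's rho = 0.40), which was 0.35 over the 6 arrays left after the 2 farthest were removed, so that relation rested on those arrays. Their signals (272 to 378) lay near the limit set by the negative control spots (276 to 315), though those of mmu-miR-92a, 324 to 402, were not far from it. By the median over arrays, replicate spots of dim controls varied more within an array (SD 0.14 to 0.21 log2 units per control) than those of bright spike controls (0.036 and 0.093). The largest SD on any array was instead higher for the spike controls (0.41 and 0.34) than for the dim controls (at most 0.32). The part of this spread in the lower correlations was not tested. mmu-miR-17 and mmu-miR-20a, which share a seed, had r = 0.76 (0.67 over 6 arrays), and mmu-miR-19a and mmu-miR-19b, which share one too, had r = 0.05.

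**Figure D3:**
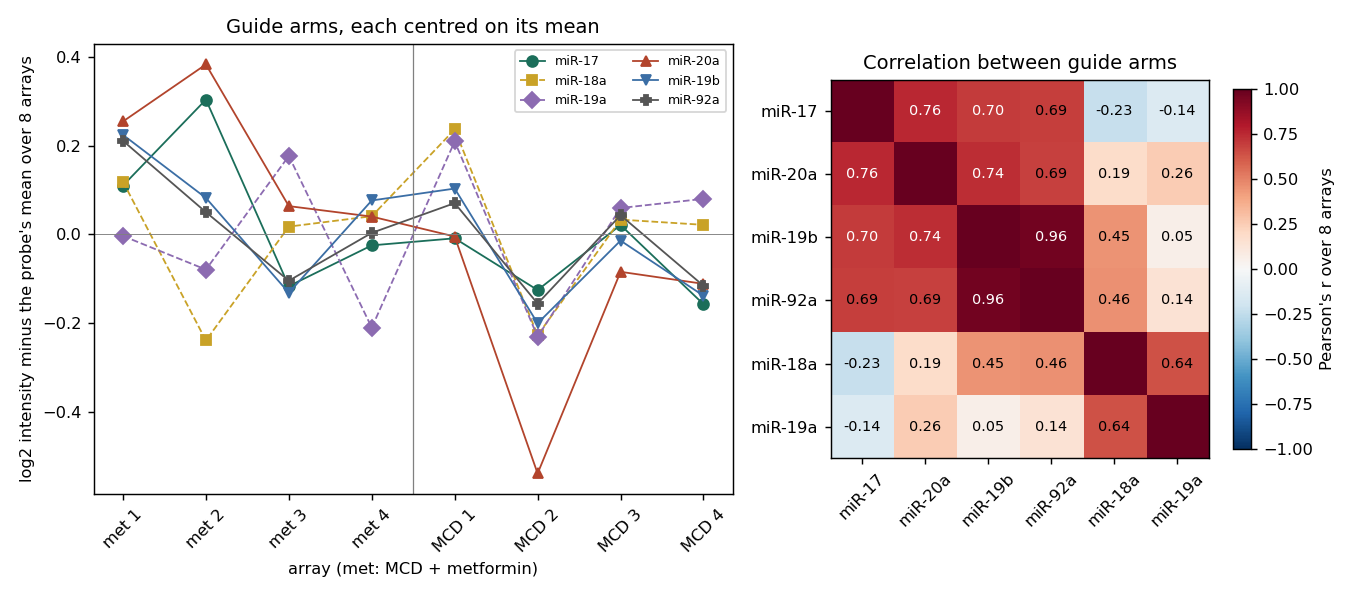
Left, log2 intensity of each guide arm minus its mean over 8 arrays, with the 4 MCD + metformin arrays (met) before the 4 MCD arrays; solid lines mark miR-17, miR-20a, miR-19b and miR-92a, dashed lines miR-18a and miR-19a. Right, Pearson's r over 8 arrays for each pair of arms; the block of the 4 solid-line arms holds values from 0.69 to 0.96, and all 6 arms lie below their mean on MCD replicate 2.

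The mean of the 6 arms, each centred and divided by its SD, was 0.94, 0.40, -0.19 and -0.08 in MCD + metformin livers and 0.66, -1.38, 0.11 and -0.46 in MCD livers. MCD replicate 2 was lowest and MCD + metformin replicate 1 highest, and the groups overlapped. Leaving out MCD replicate 2 brought the median r of the 15 pairs to 0.23, and leaving out any other array gave 0.36 to 0.71. The arm mean had an r of 0.45 with the array's brightness, taken as the median log2 intensity of the probes detected on every array before scaling, and the part of brightness in the shared profile was not tested.

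Outside the family, 433 probes detected on every array were ranked by their correlation with this mean, and their median r was 0.14. The 6 highest were mmu-miR-5100 (r = 0.97), mmu-miR-3068* (0.93), mmu-miR-680 (0.90), mmu-miR-338-3p (0.90), mmu-miR-3077* (0.88) and mmu-miR-1839-3p (0.87), of which mmu-miR-338-3p did not exceed the negative control spots on any array. mmu-miR-5100, a far brighter spot, read 41553, 34299, 29594 and 32645 in MCD + metformin livers, against 39363, 22753, 37741 and 28223 in MCD livers. It shared the low value of MCD replicate 2 and the high value of MCD + metformin replicate 1. The list was not stable, since 2 to 4 of the 6 stayed among the first 6 when 1 array was left out, and 1 did after quantile normalization.

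The paralogous clusters carry nearly the same arms. The miR-106a-363 cluster on chromosome X had 10 probes, the miR-106b-25 cluster, which lies within the Mcm7 gene on chromosome 5, had 6, and 3 further probes (mmu-miR-92b, mmu-miR-32 and mmu-miR-367) shared the mmu-miR-92a seed. All 19 were tested, and 14 had a positive and 5 a negative log2 fold change, beside 625 positive of all 1070 probes tested. The median of the 19 was 0.06, with a range of -0.24 (mmu-miR-93*) to 0.23 (mmu-miR-19b-2*). None was called at either threshold, with a smallest limma adjusted p = 0.579. Dim passenger arms moved most with the processing: mmu-miR-93* was past an unadjusted p of 0.05 in 6 alternatives, mmu-miR-25* in 3 and mmu-miR-19b-2* in 2, none after adjustment. With background taken from the blank spots, mmu-miR-93* was at -0.78, mmu-miR-19b-2* at 0.54, mmu-miR-25* at 0.73 and mmu-miR-363-3p at 1.08. Only 6 of the 19 stood out from the negative control spots on every array.

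**Figure D4:**
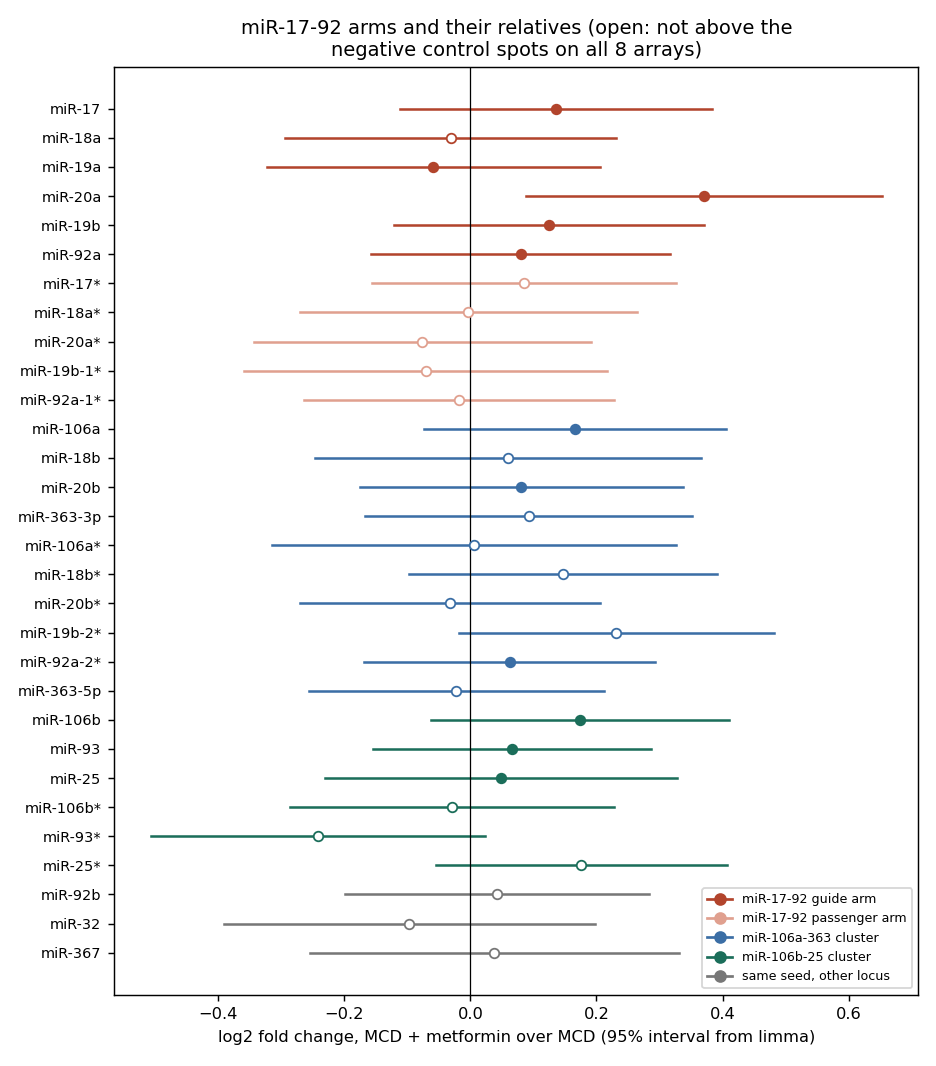
Log2 fold change of MCD + metformin over MCD with its 95% interval from limma for the 30 tested probes of the family, coloured by cluster; open circles mark probes within the range of the negative control spots on at least 1 of the 8 arrays. The interval of miR-20a is the only one of the 30 that does not include 0.

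Among the paralogs with the miR-17 seed, mmu-miR-106a read 565, 556, 504 and 534 in MCD + metformin livers, against 582, 528, 499 and 467 in MCD livers, and its log2 fold change was 0.17 (SE 0.113, 95% interval -0.07 to 0.41). mmu-miR-106b had 0.17 (SE 0.111, 95% interval -0.06 to 0.41), mmu-miR-20b 0.08 (SE 0.120) and mmu-miR-93 0.07 (SE 0.104). All 6 arms with this seed that were measured, mmu-miR-17 and mmu-miR-20a included, thus had positive values, as did 625 of all 1070 probes tested. Of the 6, only mmu-miR-20a had an interval above 0. The sign of mmu-miR-20b turned under plain background subtraction (-0.03) and quantile normalization (-0.02), and that of mmu-miR-93 under plain background subtraction (-0.03) and without scaling (-0.0048).

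Neighbours in sequence were not always neighbours in profile. mmu-miR-17 and mmu-miR-106a, 1 base apart, had r = 0.54 over the 8 arrays, mmu-miR-20a and mmu-miR-20b, 2 bases apart, had r = 0.31, and mmu-miR-20a and mmu-miR-93 had r = 0.75. mmu-miR-92a followed mmu-miR-25 of the miR-106b-25 cluster (r = 0.62) but not mmu-miR-92b (r = -0.53), although mmu-miR-92b differs from it by U10C and G21C only over their shared length. Signals of mmu-miR-92b were between 276 and 303 in MCD + metformin livers and between 282 and 317 in MCD livers, above the negative control spots on 3 of the 8 arrays.

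The liver label was checked against hepatocyte miRNAs, and mmu-miR-122, mmu-miR-192, mmu-miR-194 and mmu-miR-148a were brighter than the negative control spots on every array. These 4 of 4 were higher in MCD + metformin livers at an unadjusted limma p of 0.05, beside 6.36% of all probes, with log2 fold changes of 0.44, 0.42, 0.52 and 0.38, and their summed normalized intensity was 28544 to 37753 in MCD + metformin livers and 22652 to 24715 in MCD livers. mmu-miR-126-3p and mmu-miR-126-5p, made in endothelium, were both higher as well (0.29 and 0.32), with sums of 4816 to 5655 in MCD + metformin livers and 3727 to 4648 in MCD livers. Of 5 leukocyte markers none had a positive value and mmu-miR-223 was lower (-0.60), with sums of 821 to 1085 in MCD + metformin livers and 983 to 1497 in MCD livers. Of 5 stellate cell markers 1 was lower (the probe shared by mmu-miR-199a-3p and mmu-miR-199b, -0.70), with sums of 2153 to 4226 in MCD + metformin livers and 2508 to 5368 in MCD livers, and of 5 biliary markers mmu-miR-141 was lower (-0.43), with sums of 804 to 2155 in MCD + metformin livers and 1175 to 3001 in MCD livers. The 3 red cell markers were not called. Of all probes, 3.08% were lower at this threshold. Under the methods' t-test no leukocyte, stellate cell or biliary marker was called. Over the alternatives the lower calls ran from 0 to 2 for leukocyte and for stellate cell markers and from 0 to 4 for biliary ones. All 4 hepatocyte markers and both endothelial ones stayed positive in every alternative, but 0 of either list were called after quantile normalization or in the deposited table. Hepatocyte calls fell to 2 under plain subtraction and to 1 with background from the blank spots, and stayed at 4 elsewhere. Endothelial calls were 0 in those alternatives too, and in others such as without scaling or without MCD replicate 2. None of these calls passed adjustment, none of the markers was at 0, and the part of cell composition in the miR-20a value was not tested.

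**Figure D5:**
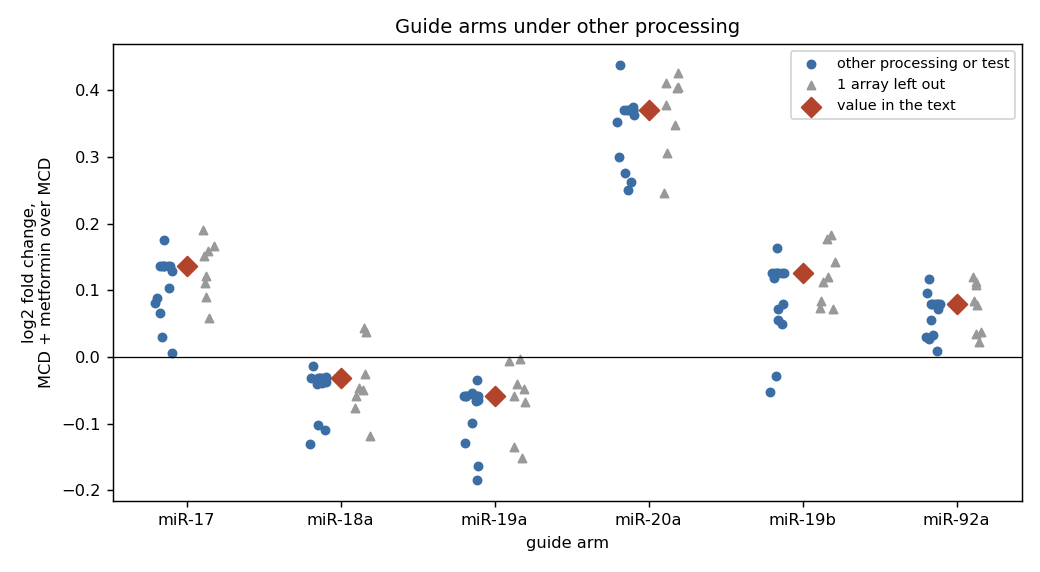
Log2 fold change of MCD + metformin over MCD for each guide arm as given in the text (diamonds), under 14 other ways of processing or testing (circles) and with 1 of the 8 arrays left out (triangles). All miR-20a values lie between 0.25 and 0.44, those of miR-17 and miR-92a stay above 0, those of miR-19a below 0, and those of miR-18a and miR-19b lie on both sides.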

How the data were processed

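The authors labelled total liver RNA with Hy5, hybridised it to mouse miRNA Oligo chips and read them with the 3D-Gene scanner. The deposited scanner values are intensities on a linear scale, the median signal and local background of each of 3136 spots, without subtraction. The deposited value table, also intensity, is a straight line of each array's signal with a median of 45. It leaves dim probes empty and was used as an alternative. The normalization to 28S RNA that the methods name could not be seen in it. No column was left unmatched (0).

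Background was corrected with normexp (limma 3.58.1, R 4.3.3, offset 50), which understates the log2 change of dim probes. Each array was scaled to the median of the 451 probes above mean + 2 SD of the 1818 blank spots on all 8 arrays. The 1070 probes that passed this limit on 4 or more arrays entered an unpaired, two-sided fit (lmFit, eBayes) with Benjamini-Hochberg adjustment, which was checked on simulated data. Exact permutation tests took all assignments of 4 against 4. The number of arrays limits the precision.

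Named were the 6 guide arms, their passenger arms, the members of both paralogous clusters, same-seed miRNAs and the 6 probes most correlated with the guide arms, with cell markers as counts. Of 22 names looked up, 21 matched RefSeq sequences. The members and lists were chosen with earlier results of these data known. Alternatives covered background, scaling, filter, test, replicate block and arrays left out, and background from the blank spots was added after seeing the data. The analysis of variance in the methods was not run.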

Additional observations from a re-analysis of the deposited data

Results flagged for a closer look

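In the 31 probes of the family, 62 groups of 4 arrays were screened for 1 array far from the other 3, which chance alone gives in about 1 of 20 groups. One was found: mmu-miR-18a*, the passenger arm of the second hairpin, was low in MCD replicate 3 at a normalized log2 intensity of 6.52, with the other MCD livers between 6.94 and 6.98. The gap made up 0.917 of the group's range. This probe did not exceed the negative control spots on any array.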

How the results depend on the processing

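No guide arm passed an adjusted p of 0.05 in any of 22 alternatives. The count of guide arms past an unadjusted p of 0.05 was 0 in place of 1 under plain subtraction of the local background (mmu-miR-20a at 0.25), without scaling (0.30), after quantile normalization (0.28), in the deposited table (0.35) and with background from the blank spots (0.37, added after seeing the data), and 0 to 1 with 1 array left out. The median of the 6 guide arms was 0.05 to 0.15 with 1 array left out and -0.01 to 0.14 otherwise. The miR-20a groups overlapped without background correction, under plain subtraction, with scaling on all probes, without scaling, after quantile normalization and in the deposited table. Over all probes, 56 were past an unadjusted p of 0.05 among those detected on all arrays and 34 among those above the negative control spots, where fewer probes were tested (451 and 221). Past an adjusted p there were 0 to 9 with 1 array left out, the 9 without MCD replicate 4. With each probe centred on its group mean, same-numbered arrays had r from -0.30 to 0.03, and differently numbered ones from -0.25 to 0.30. The labels do not say whether a shared number marks a pair, and these values cannot settle it. Replicate 4 had the fewest probes above the blank spots in both groups (848 in MCD + metformin and 868 in MCD). With the replicate number as a block, 87 probes were past an unadjusted p, and mmu-miR-20a kept 0.37 (limma adjusted p = 0.505), still past an unadjusted p of 0.05.

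Signs turned for 2 of 6 guide arms and 14 of the 24 other tested probes of the family, and the cause was not tested. Under plain subtraction mmu-miR-106b* was at 0.0039, mmu-miR-18a* 0.057, mmu-miR-19b -0.028, mmu-miR-20b -0.028, mmu-miR-20b* 0.037, mmu-miR-25 -0.027, mmu-miR-92a-1* 0.054 and mmu-miR-93 -0.026. Without scaling mmu-miR-106a* was at -0.064, mmu-miR-18b -0.011, mmu-miR-25 -0.021, mmu-miR-367 -0.032, mmu-miR-92a-2* -0.0079, mmu-miR-92b -0.027 and mmu-miR-93 -0.0048. After quantile normalization mmu-miR-106a* was at -0.023, mmu-miR-19b -0.052 and mmu-miR-20b -0.023. In the deposited table mmu-miR-18a* was at 0.063, mmu-miR-18b -0.17, mmu-miR-363-3p -0.30 and mmu-miR-367 -0.21. With background from the blank spots mmu-miR-106a* was at -0.87, mmu-miR-106b* 0.00048 and mmu-miR-18a* 0.083. With a normexp offset of 0 mmu-miR-106a* was at -0.083. Without background correction mmu-miR-106a* was at -0.0039 and mmu-miR-18a* 0.0091. With scaling on all probes mmu-miR-106a* was at -0.0017. With 1 array left out the ranges were -0.11 to 0.16 for mmu-miR-106a*, -0.12 to 0.036 for mmu-miR-106b*, -0.12 to 0.044 for mmu-miR-18a, -0.11 to 0.036 for mmu-miR-18a*, -0.071 to 0.13 for mmu-miR-18b, -0.022 to 0.15 for mmu-miR-20b, -0.066 to 0.031 for mmu-miR-20b*, -0.077 to 0.12 for mmu-miR-25, -0.083 to 0.015 for mmu-miR-363-5p, -0.11 to 0.11 for mmu-miR-367, -0.080 to 0.045 for mmu-miR-92a-1* and -0.019 to 0.11 for mmu-miR-92b.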
